A study of Mus musculus with 8 samples.

Results

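Dio2, Thra, Thrb and Thrsp are genes of thyroid hormone activation, reception and response, and they were taken from the deposited expression table by gene name. All 4 names matched 1 row each among the 44422 genes listed, and all 4 had reads in every library. Messenger RNA was measured by RNA sequencing in inguinal white fat (iWAT) and interscapular brown fat (BAT) of H1.2AKO mice and of their WT littermates. The H1.2AKO mice were homozygous for a floxed allele of the linker histone H1.2 and carried a Cre recombinase under the adiponectin promoter, which is active in adipocytes. WT mice carried the same floxed alleles without Cre, so both genotypes share them. All mice were C57BL/6 males of 10 weeks kept at 22 °C.

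There were 2 libraries for each of the 4 groups, H1.2AKO BAT, WT BAT, H1.2AKO iWAT and WT iWAT, and each library came from pooled mice (3 in the sample labels, 2 in the methods of the study). Whole fat pads were sequenced, so RNA of cells in which the Cre is silent is included, and fewer cells of a type and less RNA per cell cannot be told apart. Levels are FPKM as deposited, fragments scaled to gene length and to a library total. That total was 0.873 to 0.955 times the library's own reads over the listed genes in BAT and 1.23 to 1.33 times in iWAT. Ratios of FPKM between tissues carry this difference. Reads over the listed genes numbered from 16118634 to 17480325 per library. Hist1h1c, the gene of H1.2, had 0.177 and 1.97 FPKM in H1.2AKO BAT, against 36.8 and 43.3 FPKM in WT BAT, and 2.26 and 1.73 FPKM in H1.2AKO iWAT, against 23.7 and 24.2 FPKM in WT iWAT. Marker genes matched the tissue labels, with a mean log2 level of 10 brown adipocyte markers from 6.27 to 6.44 in BAT and from 2.59 to 2.89 in iWAT, and Hoxc9, a white fat marker, was listed at 0 in every BAT library. Skeletal muscle RNA was uneven, with a mean log2 level of 15 markers of 2.41 in H1.2AKO BAT replicate 1 and 2.77 in WT iWAT replicate 1, against 5.96 to 6.97 in the other 6 libraries.

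Thyroid hormone reaches fat mainly as thyroxine, a prohormone that the type 2 deiodinase encoded by Dio2 converts inside the cell into triiodothyronine, the ligand of the nuclear receptors. Thra and Thrb encode those receptors, which sit on DNA with a retinoid X receptor and pass from repression to activation when they bind hormone. Brown fat is a classical site of this conversion, since noradrenaline induces Dio2 through cyclic AMP, and Thrsp, a nuclear protein that accompanies fatty acid synthesis, is a classical hormone-responsive gene of liver and fat.

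Dio2 (ENSMUSG00000007682) lies on chromosome 12 from 90724554 to 90738438 on the minus strand of mm10. RefSeq places its start at 90739038, 600 bases upstream of the listed end of the gene. The 250 bases before that start (RefSeq, GRCm38.p6, chr12:90739039-90739288, minus strand) are shown because cyclic AMP signalling to Dio2 runs through such an element. Capitals mark the palindrome TGACGTCA, the cyclic AMP response element, which ends 88 bases before the start.
Dio2 promoter: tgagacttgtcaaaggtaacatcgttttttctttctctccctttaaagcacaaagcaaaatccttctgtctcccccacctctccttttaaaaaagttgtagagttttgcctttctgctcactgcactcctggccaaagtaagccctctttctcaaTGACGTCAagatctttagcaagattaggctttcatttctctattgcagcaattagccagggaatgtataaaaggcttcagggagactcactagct
This element was found in 1.55% of the 32841 promoter windows of the same length. The receptor half-site AGGTCA, searched on both strands, was found in 14.03% of them, and the Dio2 window holds none. A match describes letters only, and binding was not measured in these libraries.

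Thrsp (ENSMUSG00000035686) lies on chromosome 7 from 97412938 to 97417730 on the minus strand. RefSeq places its start at 97417550, inside the listed gene. The window before that start holds neither of those motifs. It does hold the CCAAT box, searched on both strands, 2 times, in opposite orientations and close to the RefSeq start. Both boxes lie within the listed gene, downstream of its listed start, and 33.9% of all windows hold at least 1. The pair is shown because CCAAT boxes are bound by the factor NF-Y in many lipogenic promoters. Capitals mark the box, which the first line reads on its reverse strand.
Thrsp CCAAT box 1: ccaaacgctgggATTGGctcaaaacagggc
Thrsp CCAAT box 2: ggctgtgttgctCCAATggttgggctttgg
The lines come from chr7:97417612-97417641 and chr7:97417585-97417614 (RefSeq, GRCm38.p6, minus strand). Thrb (ENSMUSG00000021779, chromosome 14, 17660960 to 18038088, plus strand) has 2 RefSeq starts, and 1 half-site was found, 179 bases before the upstream one. Of the 4 genes, 3 had a promoter in the RefSeq table, and Thra was not among them.

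**Figure D1:**
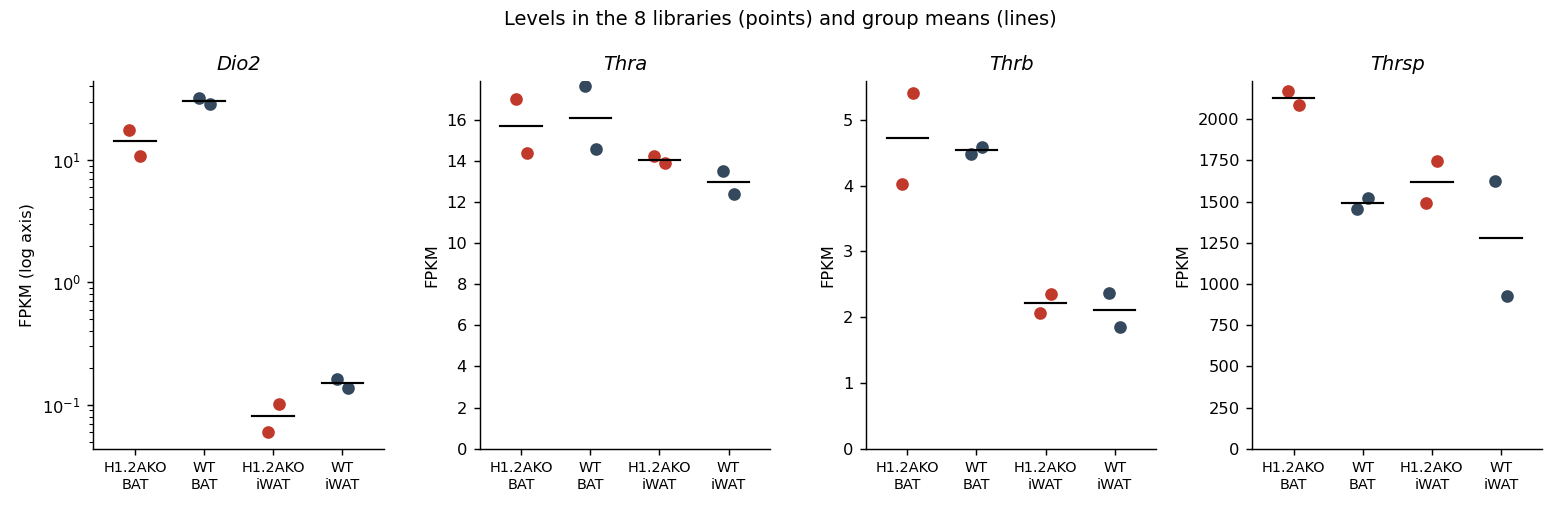
FPKM of the 4 genes in each of the 8 libraries, with red points for H1.2AKO, dark points for WT and a line at each group mean of 2 libraries. The axis of Dio2 is logarithmic and the others start at 0. Dio2 lies between 10.9 and 32.3 FPKM in BAT and between 0.0598 and 0.163 FPKM in iWAT, and the H1.2AKO points lie below the WT points in both tissues.

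Dio2 was the member with the largest differences, both between tissues and between genotypes. In BAT its level was 17.6 and 10.9 FPKM in the H1.2AKO libraries, against 32.3 and 28.8 FPKM in the WT libraries. In iWAT it was 0.0598 and 0.101 FPKM in H1.2AKO, against 0.163 and 0.136 FPKM in WT. The H1.2AKO pair of libraries was under the WT pair in either fat, which was also the case for 18.9% of all genes tested in BAT and 20.5% of those tested in iWAT.

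The BAT means were 14.3 ± 4.79 FPKM in H1.2AKO and 30.6 ± 2.45 FPKM in WT (SD, n = 2 each), a ratio of 0.466. On the log2(FPKM + 0.5) scale the difference was -1.11 (standard error 0.22, 95% interval -1.63 to -0.60), with an unadjusted p of 0.00158 and an adjusted p of 0.185 from limma. Only 2.02% of the 13190 genes tested had a lower log2 fold change. The call was not made, as for every other gene of that comparison, the deleted gene Hist1h1c included (adjusted p = 0.0717 from limma). Limma called 0 genes (0%) in BAT, where 1654 genes (12.5%) had an unadjusted p under 0.05. Limma-voom on the reads behind the FPKM called 31, without Dio2 (adjusted p = 0.0589, log2 fold change -1.22). Replicate spread within H1.2AKO bears on the size, since leaving out H1.2AKO BAT replicate 2 gave -0.77 and leaving out replicate 1 gave -1.45.

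Reads behind Dio2 in BAT numbered 1489 and 926 in H1.2AKO and 2771 and 2614 in WT. In iWAT they were few, 8 and 12 in H1.2AKO and 19 and 17 in WT. Summed over 2 libraries that makes 20 reads in H1.2AKO (Poisson 95% interval 12.2 to 30.9) and 36 reads in WT (25.2 to 49.8), and the intervals, which cover counting error only, overlap. Its mean in iWAT was under the minimum of 0.5 FPKM, so it was not tested there.

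The mean log2 level of the muscle markers was 2.41 and 5.96 in H1.2AKO BAT, against 6.79 and 6.97 in WT BAT, and the log2 fold change of Dio2 was -1.37 in a fit with the muscle level as a covariate. The mean log2 level of the brown adipocyte markers was 6.44 and 6.42 in H1.2AKO BAT, against 6.33 and 6.27 in WT BAT, and that of 6 markers of all adipocytes was 9.48 and 9.49 in H1.2AKO BAT, against 9.44 and 9.55 in WT BAT. Immediate early and heat shock genes, which can respond to handling, had a mean log2 level of 3.52 and 4.87 in H1.2AKO BAT, against 4.92 and 3.55 in WT BAT. The part of these cells and genes in the Dio2 difference was not tested.

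Between tissues Dio2 was 177-fold higher in BAT than in iWAT of H1.2AKO mice and 204-fold higher in BAT than in iWAT of WT mice, as ratios of mean FPKM. The log2 difference averaged over genotypes was 5.10 on the log2(FPKM + 0.5) scale (standard error 0.15, adjusted p = 2.12e-06 from limma). That scale shrinks the contrast because of the low iWAT level. Dio2 averaged 0.115 FPKM in iWAT and passed the filter of this comparison only through BAT, where it is high. The p-value and the rank among genes are therefore given as description only. The log2 difference was higher than that of 99.95% of the genes tested, in a comparison where 65.9% of genes were called. All 4 BAT libraries lay above all 4 iWAT libraries, as for 29.2% of genes, and the exact two-sided permutation test gave p = 0.0286, the smallest that 4 libraries against 4 allow. The ratio of mean FPKM, H1.2AKO over WT, was 0.466 in BAT and 0.538 in iWAT. Dio2 also entered the tissue by genotype interaction only through its BAT level. Its iWAT levels lie under the pseudocount of 0.5, so the log2 difference in iWAT shrank to -0.16. The interaction of -0.95 (adjusted p = 0.822 from limma, -1.34 to -0.31 under the alternatives) therefore gives no measure of a difference between tissues. No gene was called for the interaction (0%), limma-voom called 0, and 839 genes (5.61%) had an unadjusted p under 0.05.

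The other deiodinases were close to absent. Dio1, which activates thyroxine in liver and kidney, had 0 reads in all BAT libraries, and the 95% upper limit for 2 libraries together is 3.69 reads. In iWAT it had 1 and 0 reads in H1.2AKO and 4 and 4 reads in WT. Dio3, which inactivates the hormone, had at most 3 reads in any library. Dio2 was thus the deiodinase with measurable expression in BAT, where 83.2% of the genes tested had a lower mean level.

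**Figure D2:**
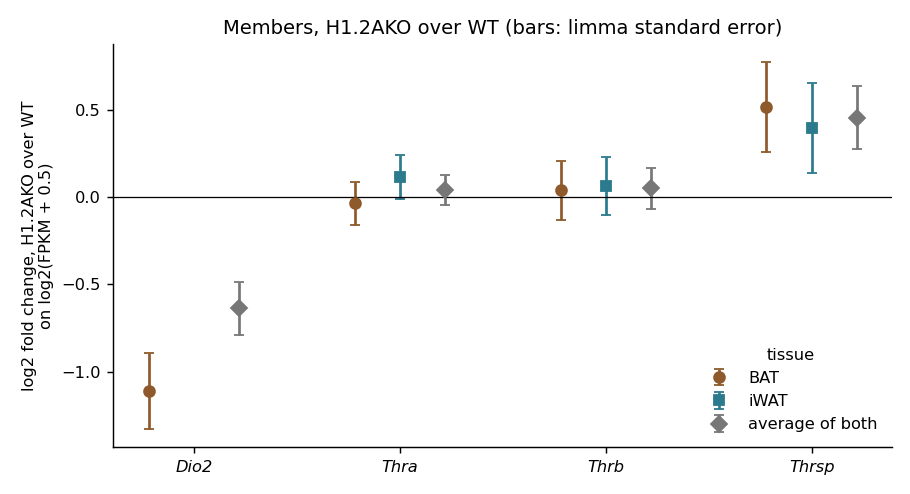
Log2 fold change of each gene, H1.2AKO over WT, on the log2(FPKM + 0.5) scale, for BAT (circles), iWAT (squares) and their average (diamonds), with bars of 1 limma standard error. Dio2 in BAT lies at -1.11, Thra and Thrb lie near 0, and Thrsp lies at 0.51 in BAT and 0.39 in iWAT. Dio2 has no iWAT point because it was not tested there.

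No receptor gene was called between genotypes. Thra had 16.99 and 14.4 FPKM in H1.2AKO BAT, against 17.6 and 14.6 FPKM in WT BAT, and 14.2 and 13.9 FPKM in H1.2AKO iWAT, against 13.5 and 12.4 FPKM in WT iWAT. Thrb had 4.02 and 5.41 FPKM in H1.2AKO BAT, against 4.49 and 4.59 FPKM in WT BAT, and 2.06 and 2.36 FPKM in H1.2AKO iWAT, against 2.36 and 1.84 FPKM in WT iWAT. The genotypes overlapped for Thra in BAT and for Thrb in both tissues, while both H1.2AKO iWAT libraries lay above both WT ones for Thra, as for 16.7% of genes tested in iWAT.

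For Thra the log2 fold change was -0.03 in BAT (95% interval -0.33 to 0.26) and 0.11 in iWAT (-0.18 to 0.41). For Thrb it was 0.04 in BAT (-0.36 to 0.44) and 0.06 in iWAT (-0.34 to 0.46). None was called by limma (adjusted p from 0.936 to 0.996), and the intervals leave room for differences of up to 0.46 on the log2 scale. In iWAT 0 of 14349 genes (0%) were called by limma and 0 by limma-voom, with 855 (5.96%) at an unadjusted p under 0.05. The deleted gene Hist1h1c was thus not called there either (adjusted p = 0.366 from limma).

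Receptor levels depended on the tissue, and for Thra on how the libraries were scaled. Thrb was 0.95 higher in BAT on the log2(FPKM + 0.5) scale, averaged over genotypes (standard error 0.12, adjusted p = 0.000446 from limma). It was called within H1.2AKO mice (0.93, adjusted p = 0.00342, where 54.3% of all genes were called) and within WT mice (0.96, adjusted p = 0.00318, where 53.7% were called). All 4 BAT libraries lay above all 4 iWAT libraries for Thrb, as for 29.2% of genes. The exact permutation p was 0.0286, the smallest that 4 libraries against 4 allow. With the deposited values Thra had the same separation and the same exact permutation p.

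Thra was 0.22 higher in BAT with the deposited values (standard error 0.09, adjusted p = 0.0591 from limma), a difference that was not called, and with median-ratio scaling it was 0.27 higher and called (adjusted p = 0.0343). Reads recovered from the table show that the deposited FPKM were divided by 0.873 to 0.955 times the library's own reads in BAT and by 1.23 to 1.33 times in iWAT. Rescaled to each library's own reads, Thra had 15.2 and 12.5 FPKM in H1.2AKO BAT and 16.1 and 13.9 FPKM in WT BAT, against 18.7 and 17.4 FPKM in H1.2AKO iWAT and 16.6 and 16.5 FPKM in WT iWAT. All BAT libraries then lay below all iWAT libraries, as 54.7% of genes did under that scaling and 31.7% with the deposited values, and the log2 difference was -0.26 (adjusted p = 0.0283 from limma). That scaling moved the median of all genes from -0.02 to -0.45, and the share of called genes that were higher in BAT from 48.2% to 19.3%. Relative to the median gene, Thra was 0.24 higher as deposited and 0.19 higher after rescaling, and Thrb 0.96 and 0.97 higher.

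**Figure D3:**
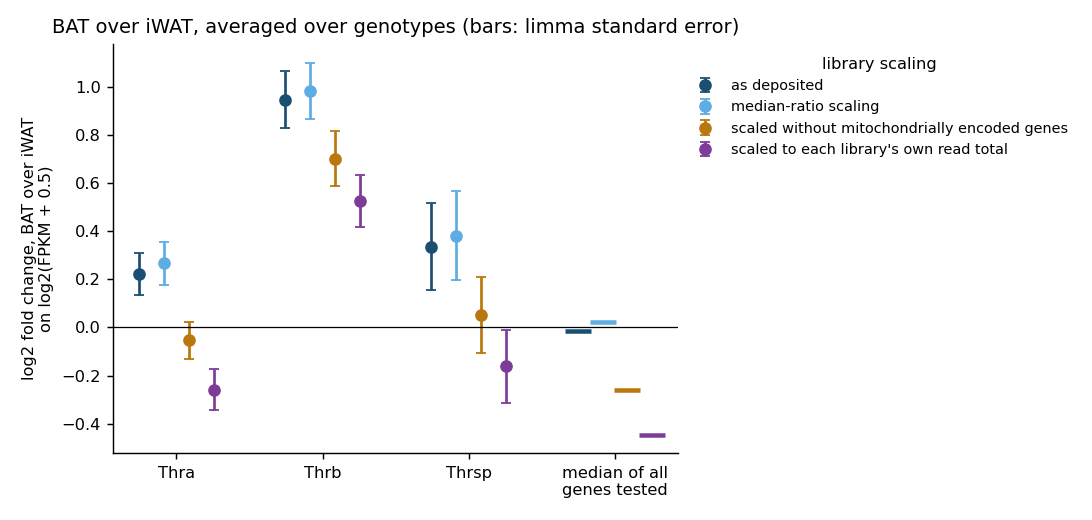
Log2 difference, BAT over iWAT, averaged over genotypes, of Thra, Thrb and Thrsp under 4 scalings of the libraries, with bars of 1 limma standard error, and the median of all genes tested under each scaling at the right. Thrb stays above 0 under the 4 scalings, from 0.53 to 0.98, while Thra runs from -0.26 to 0.27 and Thrsp from -0.16 to 0.38.

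The ratio of Thrb to Thra within a library does not depend on scaling. It was 0.237 and 0.377 in H1.2AKO BAT and 0.255 and 0.315 in WT BAT, against 0.145 and 0.170 in H1.2AKO iWAT and 0.175 and 0.149 in WT iWAT. The ratio was thus 1.83-fold higher in BAT (exact two-sided permutation p = 0.0286, a ratio added after the values were seen), although Thra stayed the more abundant receptor mRNA per length in all 8 libraries.

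Annotation limits what the Thra value holds. Thra (ENSMUSG00000058756, chromosome 11, 98740638 to 98769006, plus strand of mm10) ends within Nr1d1, the gene of the clock repressor REV-ERB alpha, which runs on the minus strand. In GENCODE vM21 their exons share 263 bases, 5.70% of the exon bases of Thra. Transcript Thra-201 (492 codons) ends in the shared exon and encodes the form known not to bind hormone, and Thra-202 (410 codons), which encodes the hormone-binding form, ends before it. Gene-level values add both forms, and the sources used here do not say whether reads were counted by strand, so reads in the shared bases cannot be told apart.

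Nr1d1 had 96.5 and 101 FPKM in H1.2AKO BAT, against 86.5 and 88.2 FPKM in WT BAT, and 55.1 and 65.8 FPKM in H1.2AKO iWAT, against 60.0 and 69.7 FPKM in WT iWAT. If its coverage were even and every read of the shared bases were given to Thra, it would add 4.93 to 5.78 FPKM to Thra in BAT and 3.14 to 3.97 FPKM in iWAT. Dio2 shares 100 exon bases with Gm26512, a noncoding gene on the other strand, which had at most 7 reads in any library.

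**Figure D4:**
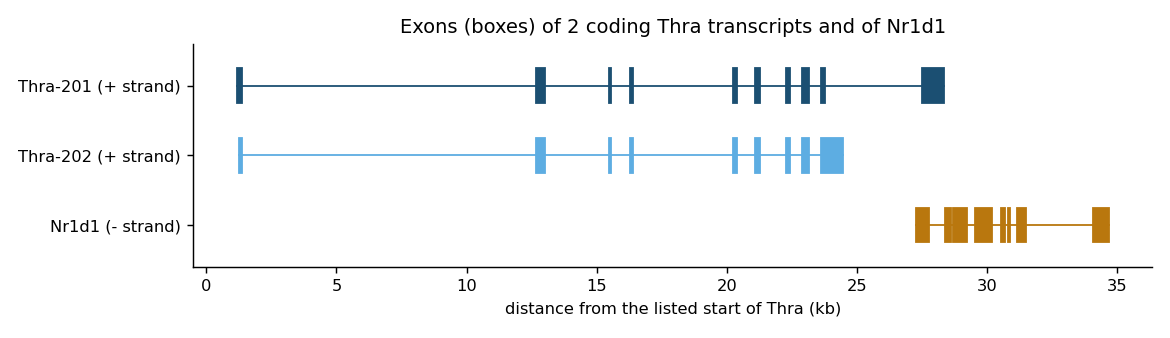
Exons (boxes) of the coding transcripts Thra-201 and Thra-202 and of Nr1d1, drawn to scale by distance in kilobases from the listed start of Thra. The last exon of Thra-201 lies across the leftmost box of Nr1d1, with 263 shared bases, and Thra-202 ends before it. Nr1d1 runs from right to left, so that box is at its end.

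Thrsp was among the most abundant mRNAs of both fats, at rank 27 of 13190 genes in BAT and rank 17 of 14349 in iWAT by mean FPKM. Its level was 2169 and 2087 FPKM in H1.2AKO BAT, against 1454 and 1524 FPKM in WT BAT. In iWAT it was 1494 and 1748 FPKM in H1.2AKO, against 1626 and 929 FPKM in WT. Both H1.2AKO libraries lay above both WT libraries in BAT, as for 22.4% of genes, whereas the genotypes overlapped in iWAT.

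In BAT the means were 2128 ± 58.3 FPKM in H1.2AKO and 1489 ± 49.6 FPKM in WT (SD, n = 2 each), 42.9% higher in H1.2AKO. The log2 fold change was 0.51 (standard error 0.26, 95% interval -0.10 to 1.13, adjusted p = 0.471 from limma), above that of 96.0% of genes. With the muscle level as a covariate it was 0.19. In iWAT it was 0.39 (standard error 0.26, adjusted p = 0.952), a value that rested on WT iWAT replicate 2: without it the log2 fold change was -0.01, and without WT iWAT replicate 1, the library with little muscle RNA, it was 0.80. WT iWAT replicate 2 also had the lowest mean log2 level of 14 lipogenesis enzymes, 6.06, against 6.79 in WT replicate 1 and 6.76 and 7.08 in H1.2AKO iWAT.

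Averaged over tissues, Thrsp had a log2 fold change of 0.45 (unadjusted p = 0.0428, adjusted p = 0.415) and Dio2 one of -0.64 (unadjusted p = 0.00471, adjusted p = 0.225), both from limma. The Dio2 value averages the BAT difference with the shrunken one in iWAT, and ran from -1.07 to -0.47 under the alternatives. That comparison called 1 gene, Svep1 (0.00709%), and 1632 genes (11.6%) had an unadjusted p under 0.05. Limma-voom called 35. Between tissues Thrsp was 0.34 higher in BAT with the deposited values (adjusted p = 0.145) and 0.16 lower with each library's own read total, and the libraries of both tissues overlapped (exact permutation p = 0.257).

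**Figure D5:**
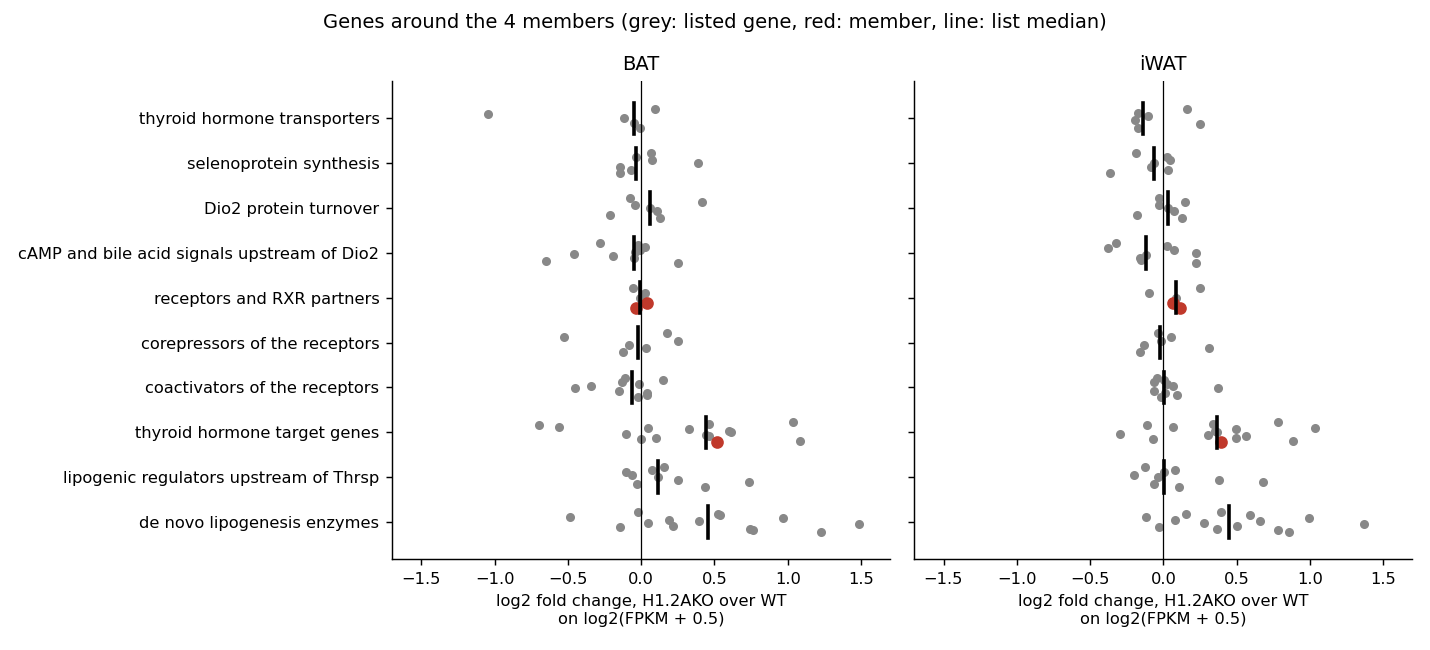
Log2 fold change, H1.2AKO over WT, of the tested genes of 10 lists around the 4 genes, in BAT (left) and iWAT (right). Grey points are listed genes, red points are Thra, Thrb and Thrsp, and vertical lines are list medians. The target and lipogenesis lists have medians of 0.44 and 0.46 in BAT, and the other lists lie closer to 0. None of these genes was called.

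Genes of hormone entry, enzyme synthesis and adrenergic signalling around Dio2 are given against the shares over all genes. Averaged over genotypes, 31.7% of all genes tested were called higher in BAT than in iWAT and 34.2% lower with the deposited values. With each library's own read total 72.5% were called, 14% higher and 58.5% lower. Of 11 listed transporters 6 were tested, and 3 were called lower in BAT. Averaged over genotypes Slco2b1, an organic anion transporter, was lower in BAT than in iWAT on the log2 scale (-0.98). So were the amino acid transporters Slc7a5 (-1.48) and Slc7a8 (-0.80), with adjusted p of the 3 up to 0.00416 from limma. The 3 genes kept direction and call with each library's own read total, with -1.46, -1.84 and -1.22. Slc7a5 averaged under 0.5 FPKM in BAT, so it passed the filter only through iWAT, where it is higher. Slc7a8 had 1.54 and 1.08 FPKM in H1.2AKO BAT, against 2.72 and 3.77 FPKM in WT BAT, a log2 fold change of -1.05 that was not called (unadjusted p = 0.00273, adjusted p = 0.206). In iWAT its levels overlapped, with 4.17 and 3.31 FPKM in H1.2AKO and 3.64 and 4.97 FPKM in WT.

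Dio2 is a selenoprotein, and of 7 genes of selenoprotein synthesis 3 were called higher and 1 lower in BAT than in iWAT, or 2 higher and 4 lower with each library's own read total, where 65.9% and 72.5% of all genes were called under these scalings. Sephs2, which makes the selenium donor, was 2.21 higher in BAT, and 1.72 higher with that total. Between genotypes 0 of the 7 were called in either tissue. Genes that attach ubiquitin to the enzyme or remove it were listed together. With the deposited values 5 of the 7 tested were called higher in BAT, a call made for 31.7% of all genes. With each library's own read total 0 were called higher, against 14% of all genes. Wsb1, the adaptor that recognises the enzyme, was lower in BAT under both, with -0.97 and -1.44. In the genotype comparison for Usp20, a deubiquitinase of the enzyme, the log2 fold change in BAT was 0.42 (adjusted p = 0.285).

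Of 11 genes of the adrenergic and bile acid signals that induce Dio2, 10 were tested, 6 were called higher in BAT and 1 lower, or 6 higher and 3 lower with each library's own read total. The called shares over all genes are those given for selenoprotein synthesis. Adrb1, a beta-adrenergic receptor, was 3.52 higher and Adcy3, an adenylate cyclase, 2.95 higher, and with that total they were 3.14 and 2.49 higher. Between genotypes in BAT, 8 of the 10 had lower values in H1.2AKO, with a median log2 fold change of -0.05 against 0.01 over all genes, and 0 were called. Adcy3 had -0.46 (unadjusted p = 0.0126, adjusted p = 0.277 from limma). Gpbar1, the bile acid receptor, was listed at 0 in 5 of 8 libraries and at no more than 0.126 FPKM in the others.

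Receptor partners and cofactors had genotype medians near 0. Of 3 retinoid X receptor genes, Rxrg (1.07) and Rxrb (0.54) were higher and Rxra (-0.70) lower in BAT than in iWAT, all called by limma (adjusted p up to 0.000229), and 0 were called between genotypes. Rxrb lost its call with each library's own read total (0.06, adjusted p = 0.383), while Rxrg (0.59) and Rxra (-1.19) kept theirs. Corepressors had a median log2 fold change of -0.02 in both tissues and coactivators of -0.07 in BAT and 0.01 in iWAT. Tbl1xr1, a subunit of the corepressor complex, had -0.53 in BAT (adjusted p = 0.248). Ppargc1a, a coactivator of thermogenic genes, was 2.82 higher in BAT than in iWAT, and its log2 fold change between genotypes was -0.45 in BAT (adjusted p = 0.449).

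None of the genes known to respond to thyroid hormone was called between genotypes. In BAT 11 of 15 had higher values and the median log2 fold change was 0.44, and in iWAT 12 of 15 had higher values and the median was 0.36, against medians over all genes of 0.01 and -0.0037. The iWAT values rested on WT iWAT replicate 2, without which 8 of 15 had higher values and the median was 0.016, and without WT iWAT replicate 1, the library with little muscle RNA, it was 0.68. In BAT the median was 0.22 without H1.2AKO BAT replicate 2 and 0.47 without H1.2AKO BAT replicate 1. The list holds Thrsp and shares the lipogenic enzymes Fasn, Acaca, Scd1 and Me1 with fatty acid synthesis. Fasn, the fatty acid synthase, had 3405 and 3761 FPKM in H1.2AKO BAT, against 2200 and 2481 FPKM in WT BAT. Outside lipogenesis the targets had values on both sides. In BAT Slc2a4, the insulin-responsive glucose transporter, had 0.46 as its log2 fold change (adjusted p = 0.266). Atp2a2, a calcium pump of the endoplasmic reticulum, had 74.7 and 71.99 FPKM in H1.2AKO BAT, against 104 and 113 FPKM in WT BAT (log2 fold change -0.56, limma adjusted p = 0.128), and Klf9, a direct receptor target, had a ratio of H1.2AKO to WT of 0.998 in BAT.

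Upstream of Thrsp, Mlxipl, the glucose-sensing factor ChREBP, had 133 and 160 FPKM in H1.2AKO BAT, against 84.5 and 90.8 FPKM in WT BAT, and 46.9 and 56.4 FPKM in H1.2AKO iWAT, against 38.5 and 26.5 FPKM in WT iWAT (log2 fold change 0.74 and 0.68, adjusted p = 0.248 and 0.636). Mid1ip1, the paralogue of Thrsp, had 36.5 and 55.0 FPKM in H1.2AKO BAT, against 21.4 and 20.4 FPKM in WT BAT. In iWAT it had 34.3 and 52.6 FPKM in H1.2AKO, against 31.0 and 16.7 FPKM in WT. Both H1.2AKO libraries were above both WT libraries in each tissue, as for 22.4% of genes in BAT and 16.7% in iWAT, and the averaged log2 fold change of Mid1ip1 was 0.98 (unadjusted p = 0.00544, adjusted p = 0.234). Of 14 lipogenesis enzymes, 11 in BAT and 12 in iWAT had higher values in H1.2AKO, with medians of 0.46 and 0.45. Without WT iWAT replicate 2 (libraries left out of lists after the data were seen) 8 of the 14 had higher values in iWAT and the median was 0.049.

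Profiles most like those of the 4 genes were found by the root mean square difference of centred log2 values over the 8 libraries, among 14944 genes. Gyk, glycerol kinase, was nearest to Dio2, at 0.31, with 27.7 and 20.3 FPKM in H1.2AKO BAT, against 44.4 and 45.3 FPKM in WT BAT, and 0.971 and 0.956 FPKM in H1.2AKO iWAT, against 0.935 and 0.679 FPKM in WT iWAT. Pank1 (0.38) and Cidea (0.47) followed. Arhgef40, Ppard and Thop1 were nearest to Thra, each at 0.05, and Spata17, Tcaim and Oxsm to Thrb, at 0.07 to 0.08. 2010003K11Rik and Glrx were among the nearest to Thrsp, each at 0.09. The libraries compared are the same 8 for every pair, and no test was made.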

How the data were processed

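The authors deposited FPKM per gene for 8 libraries. Their processing notes name HISAT2 2.0.5, mm10 and GRCm38.p6, while the counter and FPKM tool are not stated in the sources used here. FPKM times gene length gave whole reads within 0.01 for 100% of values above 0. Members and gene lists were chosen with earlier results of these data known. The 4 members and, in each list, the 3 tested genes with the smallest p per comparison could be named, and others named were chosen after their values were seen. Some results are not reported here.

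Values were analysed as log2(FPKM + 0.5) with limma 3.58.1 (R 4.3.3), 1 mean per group over all 8 libraries and trended moderation. Genes averaging 0.5 FPKM or more over the libraries compared were tested. P-values were two-sided and Benjamini-Hochberg adjusted per comparison (threshold 0.05), and measure spread between pools, which may be technical. With 2 libraries against 2 an exact test cannot go below 0.333. Scripts were tested on simulated data. Alternatives changed the pseudocount, the filter, scaling, moderation, tissues fitted, the replicate block, a muscle covariate, limma-voom on recovered reads and the libraries kept.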

Additional observations from a re-analysis of the deposited data

How the results depend on the processing

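Of 562 alternative values for 27 member results, 514 kept their direction and call, 12 gained a call and 36 changed sign. Dio2 in BAT, H1.2AKO against WT, kept its sign under all 22 alternatives (-1.45 to -0.77, adjusted p 0.0589 to 0.411) and was called under none. Thrb, BAT against iWAT, and Dio2, BAT against iWAT, were called under all 20. Where a filter applied, Dio2 passed it only through its BAT level. The 2 libraries of each group limit every genotype comparison, and the cause of the changes below was not tested.

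Scaling changed the direction of Thra and Thrsp between tissues, and the pseudocount the size of Dio2, BAT against iWAT averaged, which was 6.61 with 0.1, 4.28 with 1 and 7.02 with limma-voom. With each library's own read total (added after the data were seen), Thra in BAT against iWAT was -0.37 in H1.2AKO, -0.14 in WT and -0.26 averaged, and Thrsp -0.14, -0.18 and -0.16. With limma-voom Thra was -0.39, -0.15 and -0.27, and Thrsp -0.15, -0.18 and -0.16. Scaled without mitochondrially encoded genes, Thra was -0.17 in H1.2AKO and -0.054 averaged. Thrb in BAT, H1.2AKO against WT, was -0.034, -0.037 and -0.016 under these 3. For the interaction, quantile normalization gave 0.0062 for Thrb and -0.15 for Thrsp, and the muscle covariate 0.0046 and -0.37.

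With each library left out in turn, H1.2AKO against WT ran from -0.081 to 0.21 for Thrb and from -0.0089 to 0.80 for Thrsp in iWAT, and in BAT from -0.17 to 0.10 for Thra and from -0.15 to 0.23 for Thrb. Averaged over tissues it ran from -0.026 to 0.11 for Thra and from -0.046 to 0.15 for Thrb. BAT against iWAT in WT ran from -0.13 to 0.68 for Thrsp, and the interaction from -0.22 to 0.17 for Thrb and from -0.28 to 0.52 for Thrsp. A group left with 1 library took its spread from the rest.

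Counts of called genes, H1.2AKO against WT, were 0 in iWAT, 0 in BAT, 1 averaged and 0 for the interaction. A pseudocount of 0.1 gave 6 in BAT, 5 averaged and 3 for the interaction, and a pseudocount of 1 gave 2 in BAT and 2 averaged. No filter gave 11 in iWAT, 6 averaged and 5 for the interaction. Quantile normalization gave 3 in BAT and 0 averaged, the muscle covariate 1 in BAT and 0 averaged, and limma-voom 31 in BAT and 35 averaged. Scaling without mitochondrially encoded genes and to own read totals gave 0 averaged. Leaving out 1 library gave 1 to 21 in iWAT, 0 to 20 in BAT, 0 to 10 averaged and 0 to 2 for the interaction (21 without WT iWAT replicate 1, 20 without H1.2AKO BAT replicate 2).

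Deviations of same-numbered replicates had correlations of -0.13 between genotypes in iWAT and 0.08 in BAT, and 0.09 to 0.12 between tissues. Whether pools of both tissues shared mice is not stated, and correlations from so few libraries cannot decide it. With the replicate number as a block, 0 genes were called averaged over tissues and 0 in each tissue, Dio2 in BAT had an adjusted p of 0.284, and Thra in BAT against iWAT was called averaged (adjusted p = 0.0348) and in WT (0.0493). A crossed pairing, added after the data were seen, called 0 averaged.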

Other observations

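Fat also expresses the receptor of thyrotropin, the pituitary hormone that drives the thyroid, and its gene was higher in H1.2AKO in all pairwise library comparisons within a tissue, as for 22.4% of genes in BAT and 16.7% in iWAT. Tshr had 2.46 and 4.24 FPKM in H1.2AKO BAT, against 1.502 and 2.21 FPKM in WT BAT, and 15.0 and 19.2 FPKM in H1.2AKO iWAT, against 10.9 and 8.34 FPKM in WT iWAT. The log2 fold change was 0.69 in BAT (unadjusted p = 0.0430, adjusted p = 0.384) and 0.80 in iWAT (unadjusted p = 0.0238, adjusted p = 0.720), both from limma and neither called. In BAT against iWAT the averaged log2 difference of Tshr was -2.16 (adjusted p = 9.36e-05 from limma), lower in BAT also with each library's own read total (-2.62). Tshr was the 1 gene tested among 8 listed genes of the pituitary and thyroid axis, and the others, among them thyroglobulin and thyroid peroxidase, had means under 0.5 FPKM in both tissues. Tshr was named from that list, which was chosen with results of these data known.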
